A study of Gallus gallus with 8 samples.

Results

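The collagen chain genes and 7 genes that process collagen were read in cells sorted from the chick neural tube by the activity of a BMP reporter. A gene was taken where its symbol in the deposited table was that of a collagen chain, to which P4HA1, P4HA2, P4HB, PLOD1, PLOD2, SERPINH1 and LOX were added. This gave 38 genes of 13257 symbols, made up of 31 collagen chains and the 7 processing genes, on 92 of 38439 tested probe sets. PLOD3 had no probe set under its symbol and was not analysed here. Where a gene had several probe sets, the brightest by mean of the 8 arrays stands for it, and its other probe sets are given where they were called present on at least 4 of the 8 arrays.

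White Leghorn embryos of Hamburger and Hamilton stages 10 to 11 received, by electroporation in ovo at trunk level, the plasmids pBRE-tk-EGFP and pCAGGS-IRES-H2B-RFP. In the first, a BMP-responsive element drives a green fluorescent protein, and the second makes a nuclear red protein in electroporated cells. The neural tubes of nearly 30 embryos were pooled 24 h later and sorted into red and green cells (BRE_active) and red cells without green (BRE_inactive), with at least 100000 red and 20000 green cells per pool. The labels name no mutation or further treatment, and the embryos of both groups received both plasmids. The sort does not show whether a red cell without green had taken up the reporter plasmid. The 4 pools gave 4 Affymetrix arrays per group, so each BRE_active array has a BRE_inactive partner from the same embryos. Values are log2 expression values as the authors deposited them, differences are BRE_active minus BRE_inactive, and the number of arrays limits the precision.

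Collagens are secreted proteins in which 3 chains wind into a triple helix. Fibrillar collagens form the fibrils of connective tissue, collagen IV forms the network of basement membranes, and the fibril-associated collagens (FACIT) sit on the surface of fibrils or near basement membranes. In the endoplasmic reticulum, prolyl 4-hydroxylase and lysyl hydroxylases modify the chains and the chaperone HSP47 binds the folded helix. Outside the cell, lysyl oxidases cross-link the chains. In the trunk of the early embryo the neural tube is wrapped by a basement membrane, which crest cells leave behind when they delaminate, and they migrate through a matrix that contains collagens.

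A gene was called when its adjusted p was under 0.05 in a limma fit on group alone, with Benjamini-Hochberg adjustment over all tested probe sets. COL9A3 and COL9A1, which encode chains of the FACIT collagen IX, rose in BRE_active cells, by 4.09-fold and 2.62-fold. They were the only 2 of the 38 genes called higher (5.26%, where 1.55% of all symbols were), and 0 were called lower (0.656% of all symbols). At an unadjusted p under 0.05, 8 were higher and 2, the undetected or nearly undetected COL6A1 and LOX, were lower. A further dim COL6A1 probe set, given below, went the opposite way. The share of all symbols at that unadjusted threshold was not counted, so no excess is read from such counts, here or below. When the pool was added as a block, so that fractions were compared within each pool, 10 of the 38 were called higher (26.3%, against 4.9% of all symbols) and 0 lower (against 2.56%). With the pool as a random block at the estimated correlation, 4 were called higher (against 2.69% of all symbols): COL9A3, COL9A1, COL1A2 and SERPINH1, with COL12A1, COL4A2, COL18A1, COL5A1, P4HA2 and PLOD1 not called (adjusted p between 0.069 and 0.473). The 10 called with the fixed block were COL9A3, COL9A1, the fibrillar chains COL1A2 and COL5A1, the basement membrane chain COL4A2, the FACIT chain COL12A1, the multiplexin COL18A1 and the processing genes SERPINH1, P4HA2 and PLOD1. Of these, COL9A3, COL9A1, COL1A2, COL4A2 and SERPINH1 stayed called with the block when any 1 pool was left out. COL18A1 and PLOD1 were lost without each pool in turn, COL5A1 without pool 1, 3 or 4, and COL12A1 and P4HA2 without pool 2 or 3. On group alone, 6 genes were called without the BRE_active array of pool 4, where the share of all symbols called higher also rose, from 1.55% to 3.31%. In RNA from sorted bulk cells, fewer cells of a type and less RNA per cell cannot be told apart.

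Of the 38 genes, 21 were detected, meaning that the authors called the probe set present on all 4 arrays of at least 1 group, 11 were present on no array and 6 lay between. All 10 genes called with the block were detected, as were 6801 of all symbols, of which 2.76% were called higher on group alone. With the block, 8.53% of detected symbols were called higher and 4.21% lower. The median difference of the 21 detected genes was 0.42, against 0.03 for detected symbols, and 19 of the 21 differences were positive, against 54.7% of detected symbols. Among the positive ones, COL12A1 and COL24A1, each present on 3 BRE_inactive and 4 BRE_active arrays, were detected only through BRE_active. COL11A1, present on 4 and 3, was detected only through BRE_inactive. All detected symbols were taken by the same rule. In 15 of the 21 the difference was positive in all 4 pools, against 23.8% of detected symbols. The medians of the 21 within pools 1 to 4 were 0.48, 0.35, 0.40 and 0.47. Over all 38 genes, where dim probe sets take part, the median was 0.12, against -0.02 for all symbols. The 4 arrays of the groups did not overlap for 6 of the 38 genes, where 8.98% of all symbols showed no overlap. Of these, COL9A3, COL9A1, COL1A2 and SERPINH1 lay higher in BRE_active. COL6A1 and LOX, undetected or nearly so, lay lower.

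**Figure D1:**
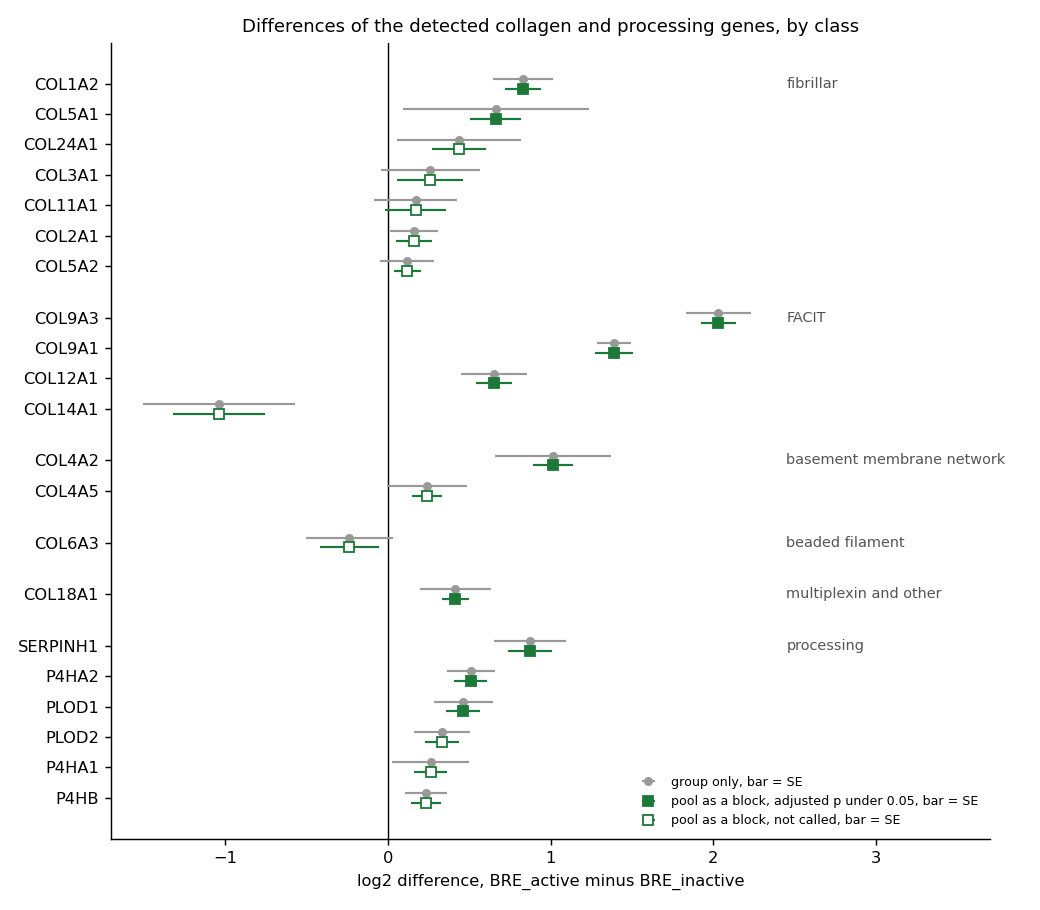
Log2 difference (BRE_active minus BRE_inactive, x axis) of the 21 detected genes, arranged by class, with circles for the fit on group alone and squares for the fit with the pool as a block; bars are standard errors. COL9A3 and COL9A1 lie farthest to the right at 2.03 and 1.39, 19 of the 21 lie to the right of 0, and COL14A1 and COL6A3 lie to its left.

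Collagen IX is a heterotrimer known from cartilage, where it coats collagen II fibrils, and it is also made in the embryonic chick cornea. COL9A3 (Entrez gene 396242, chromosome 20 in the deposited table) read 7.24, 7.14, 7.63 and 6.77 in BRE_inactive pools 1 to 4. In BRE_active it read 9.58, 9.15, 9.36 and 8.81. Every BRE_active array lay above every BRE_inactive array. The group means were 9.23 ± 0.33 and 7.19 ± 0.35 (SD, n = 4), and COL9A3 rose by 2.03 ± 0.20 (SE, adjusted p = 0.00199). Within pools 1 to 4 the difference was 2.34, 2.01, 1.73 and 2.04. It ranked 9 from the highest among the 6801 detected symbols. A dimmer COL9A3 probe set, present on 3 BRE_inactive and 4 BRE_active arrays, gave 1.98 ± 0.24 (adjusted p = 0.00511).

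COL9A1 (Entrez gene 771873, chromosome 3) read 5.27, 5.06, 5.41 and 5.10 in BRE_inactive pools 1 to 4. In BRE_active it read 6.55, 6.80, 6.47 and 6.58. The groups again did not overlap. COL9A1 rose by 1.39 ± 0.11 (adjusted p = 0.00053) and ranked 54 among detected symbols, with differences of 1.28, 1.74, 1.06 and 1.48 within the pools. Its other probe set was present on no array and differed by -0.10 ± 0.11. COL9A2, the remaining chain of the trimer, was present on 0 of 8 arrays and differed by -0.13 ± 0.11 (adjusted p = 0.629) at that undetected level. A probe set under LOC777513, which the deposited table describes as similar to an alpha-2 chain of collagen IX, was present on 0 BRE_inactive and 4 BRE_active arrays, at group means of 6.46 ± 0.12 and 6.64 ± 0.08, and differed by 0.18 ± 0.09 (adjusted p = 0.415, 0.339 with the block).

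The other detected FACIT genes were COL12A1 and COL14A1, whose products bind collagen I fibrils. COL12A1 read 4.95, 4.79, 5.0 and 4.31 in BRE_inactive and 5.30, 5.74, 5.68 and 4.94 in BRE_active. BRE_active was higher within every pool, while the groups overlapped through pool 4. The difference was 0.65 ± 0.20 (adjusted p = 0.200), and 0.0126 was the adjusted p with the block.

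COL14A1 read 7.72, 7.82, 7.57 and 6.06 in BRE_inactive and 5.46, 7.36, 6.39 and 5.79 in BRE_active. It was the one detected gene with a lower value in BRE_active in all 4 pools, by -2.26, -0.45, -1.18 and -0.26, and the size varied widely between pools. The difference of -1.04 ± 0.47 was not called (adjusted p = 0.362, 0.0765 with the block). A dimmer COL14A1 probe set, present on 4 BRE_inactive and 3 BRE_active arrays, differed by -0.57 ± 0.12 (adjusted p = 0.0579) and passed with the block (adjusted p = 0.0286). COL20A1 was present on 3 arrays of each group and differed by 0.05 ± 0.11. COL19A1 and COL21A1 were present on 0 arrays.

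**Figure D2:**
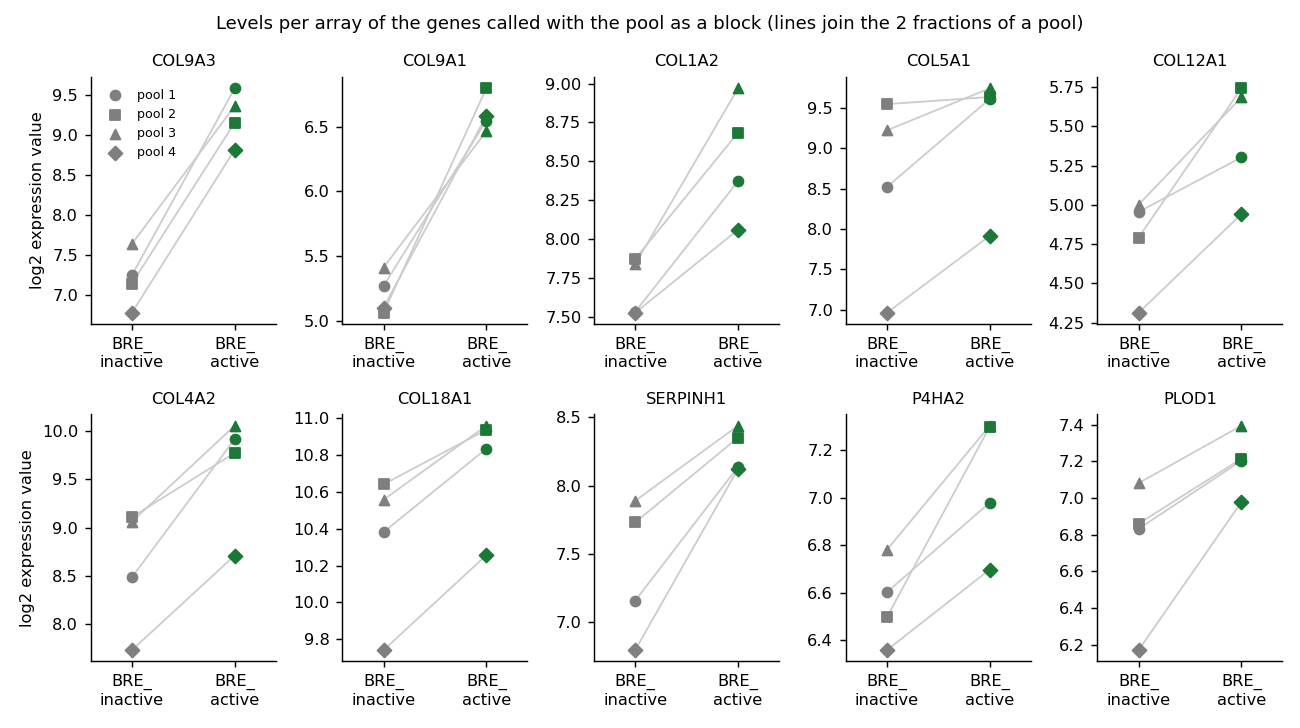
Log2 expression value (y axis, scaled separately in each panel) on each array for the 10 genes called with the pool as a block, with a marker shape per pool and a line joining the fractions of each pool. Every line rises from BRE_inactive to BRE_active, and the diamonds of pool 4 lie lowest in most panels.

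All 7 fibrillar chains measured under their own symbols were detected, none was called on group alone (1 had an unadjusted p under 0.05), and COL1A2 and COL5A1 were called with the block. COL1A2, one of the chains of collagen I, read 7.53, 7.87, 7.84 and 7.52 in BRE_inactive and 8.37, 8.68, 8.97 and 8.06 in BRE_active. The groups did not overlap. The difference was 0.83 ± 0.18, or 1.78-fold (adjusted p = 0.0699, 0.00422 with the block). Adjusted over 1 probe set per symbol in place of all probe sets, its p was 0.0447, so its call on group alone turned on how many features were counted. A further COL1A2 probe set differed by 0.82 ± 0.24 (adjusted p = 0.185, and 0.00524 when the block was added). Both carry a gene ID without an entry in the RefSeq gene table, so their name rests on the deposited symbol. A COL1A2 probe set under another gene ID was present on 0 arrays and differed by 0.01 ± 0.09.

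The partner chain COL1A1 stood in the deposited table under the symbol LOC395532 and so is not among the 38 genes. It read 7.01, 7.54, 7.61 and 6.64 in BRE_inactive and 7.46, 8.63, 8.83 and 8.19 in BRE_active. BRE_active was higher within each pool, by 0.45, 1.10, 1.22 and 1.55. The difference was 1.08 ± 0.31 (adjusted p = 0.163, 0.00744 with the block). Of 8 collagen chains found under other symbols through their gene IDs, COL1A1 was the only one detected.

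COL5A1, a chain of collagen V, which regulates the diameter of collagen I fibrils, read 8.52, 9.55, 9.22 and 6.96 in BRE_inactive and 9.61, 9.64, 9.74 and 7.91 in BRE_active. Pool 4 lay far below the other pools in both fractions. The difference was 0.66 ± 0.57 (adjusted p = 0.646) and just passed with the block (adjusted p = 0.0494). Without the BRE_inactive array of pool 4 it was 0.129, and without the BRE_active array of pool 4 it was 1.1, neither called.

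COL3A1, the chain of collagen III, read 7.83, 8.18, 7.99 and 7.86 in BRE_inactive and 7.17, 8.86, 8.46 and 8.43 in BRE_active. BRE_active was lower in pool 1 and higher in the other 3 pools. The difference was 0.26 ± 0.30 (adjusted p = 0.742, 0.54 with the block). Without the BRE_active array of pool 1 it was 0.614 (adjusted p = 0.12), and in the fit with the block and without pool 1 it was 0.57 ± 0.10 (adjusted p = 0.0151). Both of these fits leave out the only value of opposite sign, so no call is read from them.

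The remaining fibrillar chains were not called in either fit. COL2A1, the cartilage and notochord collagen, differed by 0.16 ± 0.15 (adjusted p = 0.676) and COL5A2 by 0.12 ± 0.17 (adjusted p = 0.789). COL11A1, a chain of collagen XI, differed by 0.17 ± 0.26 (adjusted p = 0.806), and its other well-detected probe sets by 0.37 ± 0.17 and 0.15 ± 0.21. COL24A1 differed by 0.44 ± 0.38 (adjusted p = 0.649, 0.188 with the block), with positive values in 3 of 4 pools.

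Of the 6 collagen IV chains, COL4A2 and COL4A5 were detected. COL4A2 read 8.48, 9.11, 9.06 and 7.73 in BRE_inactive and 9.91, 9.77, 10.05 and 8.71 in BRE_active. Within the pools BRE_active was higher by 1.43, 0.66, 0.99 and 0.98, while the BRE_active array of pool 4 lay within the BRE_inactive range. The difference was 1.02 ± 0.36, or 2.02-fold (adjusted p = 0.251, 0.00315 with the block). Another COL4A2 probe set, present on 3 BRE_inactive and 4 BRE_active arrays, differed by 0.84 ± 0.36 (adjusted p = 0.336, and 0.00447 when the block was added). COL4A5 differed by 0.24 ± 0.25 (adjusted p = 0.707, 0.195 with the block). COL4A1, which forms trimers with COL4A2 and is its neighbour on chromosome 1 in the RefSeq gene table of assembly GRCg7b, was present on 0 arrays with the probe set that stands for it and on 1 array with its other probe set. COL4A4 and COL4A6 were present on 0 arrays and COL4A3 on 1.

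COL18A1 encodes a basement membrane multiplexin from which endostatin is cut. It read 10.38, 10.64, 10.56 and 9.74 in BRE_inactive and 10.83, 10.93, 10.96 and 10.26 in BRE_active. The pool differences of 0.45, 0.29, 0.40 and 0.51 were close to each other, and pool 4 was the lowest in both groups. The difference was 0.42 ± 0.22 (adjusted p = 0.433, 0.0282 with the block). A dimmer probe set gave 0.43 ± 0.14 (adjusted p = 0.200), and its adjusted p with the block was 0.0535. COL15A1 and COL28A1 were present on 0 arrays.

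None of the 3 collagen VI chains, which form beaded filaments, was called in either fit. COL6A3 read 6.28, 6.54, 6.40 and 5.61 in BRE_inactive and 5.29, 6.36, 6.37 and 5.87 in BRE_active. Its difference of -0.24 ± 0.27 (adjusted p = 0.734) was -0.00946 without the BRE_active array of pool 1. With the probe sets that stand for them, COL6A1 was present on 1 array in all and COL6A2 on 4. COL6A1 had group means of 5.15 ± 0.23 in BRE_inactive and 4.68 ± 0.26 in BRE_active (adjusted p = 0.214, 0.0587 with the block), and COL6A2 differed by 0.01 ± 0.11. A dimmer COL6A1 probe set, present on 0 BRE_inactive and 2 BRE_active arrays, differed by 0.36 ± 0.11 (adjusted p = 0.18, 0.0877 with the block), the opposite sign. The probe sets of COL6A1 therefore disagreed. The short-chain collagens COL8A1 and COL8A2 and the transmembrane collagens COL17A1 and COL25A1 were each present on at most 1 array with the probe set that stands for the gene, and their differences lay between -0.17 and 0.13. A dimmer COL8A1 probe set, present on 2 BRE_inactive and 4 BRE_active arrays, differed by 0.29 ± 0.14 (adjusted p = 0.386).

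Of the 7 processing genes, 6 were detected and all 6 had a positive difference in every pool. None was called on group alone, where 4 of the 7, LOX among them, had an unadjusted p under 0.05, and 3 were called with the block. SERPINH1, which encodes the collagen chaperone HSP47, read 7.15, 7.73, 7.89 and 6.79 in BRE_inactive and 8.14, 8.35, 8.44 and 8.12 in BRE_active. The groups did not overlap, and the 4 BRE_active arrays lay closer together than the BRE_inactive arrays. The difference was 0.87 ± 0.22, or 1.83-fold (adjusted p = 0.112, 0.00896 with the block).

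P4HA2, a catalytic subunit of prolyl 4-hydroxylase, read 6.60, 6.50, 6.78 and 6.36 in BRE_inactive and 6.98, 7.30, 7.30 and 6.70 in BRE_active. Its difference was 0.51 ± 0.15 (adjusted p = 0.176, 0.0259 with the block). A dimmer P4HA2 probe set gave 0.10 ± 0.13 (adjusted p = 0.774), so the probe sets of this gene disagreed. P4HA1, the alternative catalytic subunit, read 8.40, 8.74, 8.83 and 7.76 in BRE_inactive and 8.81, 8.89, 8.85 and 8.22 in BRE_active. The difference was 0.26 ± 0.24 (adjusted p = 0.664, 0.193 with the block), and that of its dimmer probe set was 0.07 ± 0.15. P4HB, the disulfide isomerase that is the other subunit of the enzyme, read 12.10, 12.29, 12.23 and 11.83 against 12.53, 12.36, 12.44 and 12.07 in BRE_active. It differed by 0.23 ± 0.13 (adjusted p = 0.459), and a much dimmer probe set by -0.21 ± 0.16, the opposite sign.

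PLOD1 and PLOD2 encode lysyl hydroxylases, of which PLOD2 acts on the telopeptides. PLOD1 read 6.83, 6.86, 7.08 and 6.17 in BRE_inactive and 7.20, 7.21, 7.39 and 6.98 in BRE_active. The difference was 0.46 ± 0.18 (adjusted p = 0.304, 0.0432 with the block). PLOD2 read 5.82, 6.43, 6.55 and 6.53 in BRE_inactive and 6.42, 6.81, 6.86 and 6.56 in BRE_active. The difference was 0.33 ± 0.17 (adjusted p = 0.430, 0.123 with the block), and that of its dimmer probe set was 0.41 ± 0.25. LOX, the lysyl oxidase, was present on 0 arrays, with values between 3.39 and 4.03.

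**Figure D3:**
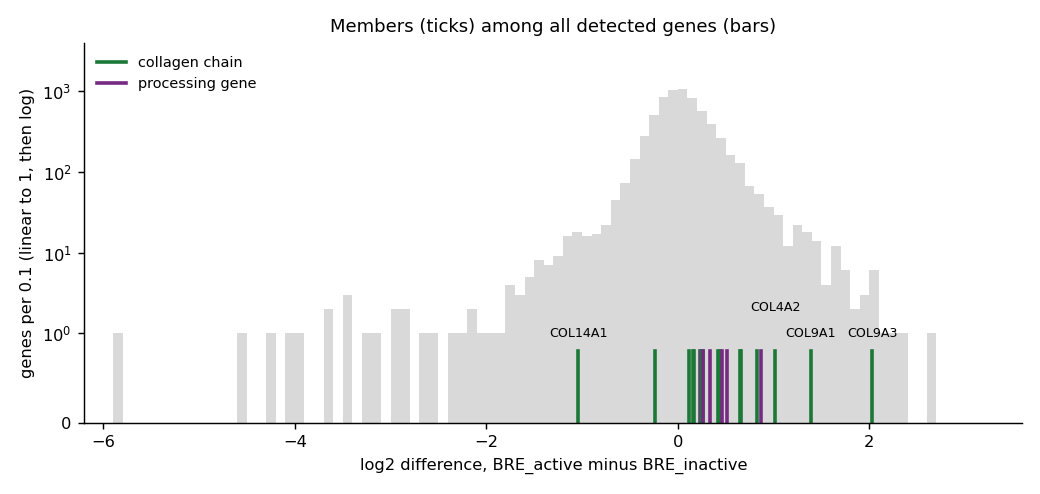
Number of detected symbols (grey bars, y axis linear to 1 and logarithmic above) by log2 difference, BRE_active minus BRE_inactive (x axis, in steps of 0.1), with a tick for each of the 21 detected collagen and processing genes. COL9A3 at 2.03 and COL9A1 at 1.39 stand in the upper tail, COL14A1 at -1.04 in the lower tail, and most other ticks lie between 0 and 1.

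Among 34 other genes of collagen synthesis and secretion, 28 were measured and 15 detected. CRTAP and LOXL1 were called higher (2 of 28, where 1.55% of all symbols were), 0 genes were called lower, and the median difference of the 28 was 0.06, against -0.02 for all symbols. At an unadjusted p under 0.05 there were 7 genes. Of these, P3H2 (-0.33, present on 0 arrays), TMEM38B (-0.37) and SAR1B (-0.26) were lower in BRE_active. The rest were higher, among them PCOLCE2 (0.27), which was also present on 0 arrays. CRTAP, a subunit of the prolyl 3-hydroxylase complex, read 8.97, 8.96, 8.94 and 8.78 in BRE_inactive and 9.62, 9.57, 9.66 and 9.56 in BRE_active, and rose by 0.69 ± 0.08 (adjusted p = 0.00348). Its call was lost without pool 3 (adjusted p = 0.0589). LOXL1, a lysyl oxidase best known for elastin cross-linking, rose by 0.86 ± 0.14 (adjusted p = 0.0207), a call kept in 5 of 12 fits that left out an array or a pool and lost without pool 1, 2 or 3. CREB3L2, a transcription factor that raises the secretory machinery for collagen in mouse cartilage, differed by 0.77 ± 0.32 (adjusted p = 0.326) and was called with the block (adjusted p = 0.0092).

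Of 9 collagen receptor genes, 5 were measured and 0 were called on group alone (2 at an unadjusted p under 0.05). ITGB1, the beta subunit shared by the collagen-binding integrins, differed by 0.50 ± 0.15 (adjusted p = 0.179) and was called once the block was added (adjusted p = 0.033). DDR1, a collagen receptor tyrosine kinase, differed by -0.20 ± 0.23 (adjusted p = 0.743), and ITGA11 by -0.13 ± 0.14 (adjusted p = 0.716). DDR2 differed by 0.35 ± 0.18 (adjusted p = 0.427). ITGA1, present on 0 BRE_inactive and 4 BRE_active arrays, differed by 0.34 ± 0.09 (adjusted p = 0.151, 0.0807 with the block). The median difference of the 5 was 0.34. SOX5, SOX6 and SOX9 are known to act on collagen genes in cartilage, and SOX8 and SOX10 are relatives of SOX9 expressed in crest. SOX10 rose by 2.03 ± 0.25 (adjusted p = 0.00542) and SOX5 by 1.92 ± 0.31 (adjusted p = 0.0169), calls kept in 9 and 4 of the 12 fits that left out an array or a pool; both were lost without pool 1, 2 or 3. SOX8 differed by 0.69 ± 0.17 (adjusted p = 0.0969, 0.0293 with the block). SOX9 differed by 1.06 ± 0.25 (adjusted p = 0.0834, 0.00101 with the block), on a probe set present on 0 BRE_inactive and 1 BRE_active arrays. SOX6 was present on 0 arrays.

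Markers of other cells moved with the groups, and their part in the collagen values was not tested. Of 10 neural crest markers, 7 rose, where 1.55% of all symbols were called higher. The mean level of all 10 lay between 6.60 and 7.56 on BRE_inactive and between 8.21 and 8.90 on BRE_active arrays. The count called higher was 8 with the block. On group alone it was 2 without the BRE_active array of pool 3 and 1 without pool 3. The shares of all symbols called higher in these fits were 4.9%, 0.769% and 0.302%. The mean level of the 10 measured red blood cell genes lay between 10.19 and 12.15 on BRE_inactive and between 6.48 and 9.01 on BRE_active arrays. Of these 10 genes, 7 fell, as did 3 of 6 neuron markers, where 0.656% of all symbols were called lower. With the block 9 and 4 were called lower, against 2.56% of all symbols. On group alone the counts were 1 and 1 without the BRE_active array of pool 3 and 0 and 0 without pool 3. The share of all symbols called lower was not counted for those fits. Of 20 somite and mesenchyme markers, 16 were measured, 6 detected and 0 called (1 at an unadjusted p under 0.05). Without the BRE_active array of pool 1, PRRX1 (1.41, adjusted p = 0.00858) and DCN, which encodes decorin (1.31, adjusted p = 0.0176), were called higher, as was the endothelial cadherin CDH5 (1.45, adjusted p = 0.00402). The mean level of the 16 measured somite and mesenchyme markers lay between 4.91 and 5.21 on BRE_inactive arrays. It was 4.64 on the BRE_active array of pool 1 and between 5.56 and 5.73 on the other 3 BRE_active arrays. PRRX1, a mesenchyme factor, read 6.92 on that pool 1 array and between 8.87 and 9.07 on the other BRE_active arrays, while PDGFRA, FOXC1 and MYF5 were present on 0 arrays. COL3A1 and COL6A3 were lowest on the same array, as the plot of the mesenchyme list shows. COL14A1 was also lowest there, but it was lower in BRE_active in all 4 pools. The mesenchyme mean was higher in BRE_active in pools 2 to 4. The mean of the 7 measured surface ectoderm markers was lowest on that array too, at 5.64, against 5.85 to 6.33 on the other BRE_active arrays. On BRE_inactive arrays it lay between 6.13 and 6.54. The endothelial mean was lowest there as well, at 5.01, against 5.43 to 5.55 on the other BRE_active arrays. On BRE_inactive arrays it lay between 5.03 and 5.29. The 3 detected endothelial markers did not share this low. Among BRE_active arrays, PECAM1 and KDR were lowest in pool 4 and TAL1 in pool 3. Of the 21 detected collagen and processing genes, only 4 had their lowest BRE_active value in pool 1, against 25% of detected symbols, while 16 had it in pool 4. A link between the mesenchyme, surface ectoderm or endothelial markers and these genes was not tested. Of the genes listed as notochord markers, FOXA2, present on 3 BRE_inactive and 1 BRE_active arrays, fell by 0.89 (adjusted p = 0.0376, kept in 3 of the 12 fits). Whether the genes of this list marked notochord or neural tube cells here was not tested. T, the brachyury factor, present on all 8 arrays, differed by 0.91 ± 0.25, with a positive value in every pool (adjusted p = 0.142, 0.000784 with the block). On group alone, 0 surface ectoderm and 0 endothelial markers were called (1 and 3 at an unadjusted p under 0.05). With the block the endothelial receptor KDR was called higher (0.82 ± 0.25, adjusted p = 0.200, 0.0339 with the block). Without the BRE_active array of pool 4, the blood and endothelial factor TAL1 was called lower (-0.54, adjusted p = 0.0416) and T higher (adjusted p = 0.0469). SHH was present on 0 arrays.

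**Figure D4:**
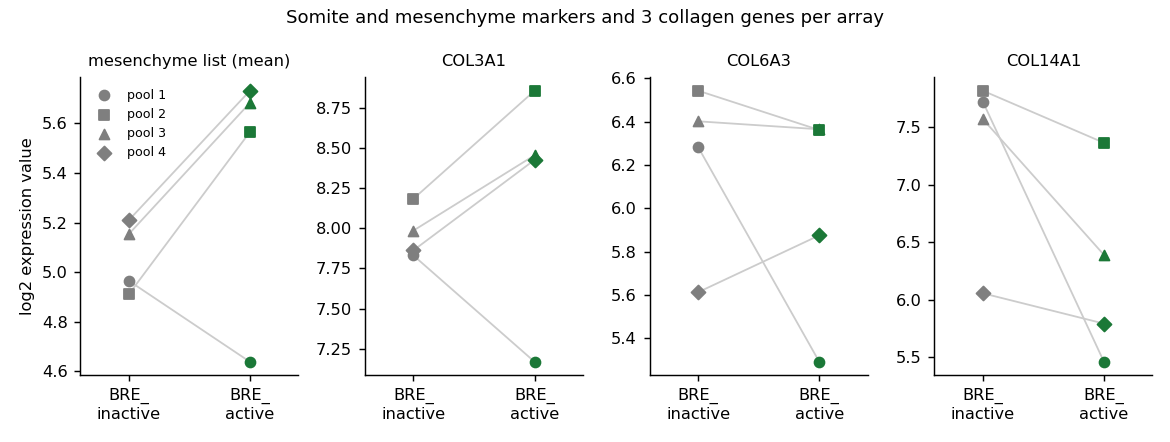
Mean log2 level of the 16 measured somite and mesenchyme markers (first panel) and log2 level of COL3A1, COL6A3 and COL14A1 on each array (y axis, scaled separately in each panel), with a marker shape per pool and lines joining the fractions of a pool. In all 4 panels the BRE_active array of pool 1 is the lowest of the BRE_active arrays, at 4.64, 7.17, 5.29 and 5.46.

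Pool 4 gave the lowest of the 4 BRE_active values for 16 of the 21 detected genes and the lowest BRE_inactive value for 17 of them, where the shares of detected symbols were 38.2% and 33%. The standard error was smaller with the block for 20 of the 21 genes, with a median of 0.11, against 0.217 on group alone. The 3′ minus 5′ signal of 3 control genes, a measure of how far labelled RNA reaches from its 3′ end, was smallest in pool 4 at 2.18 in BRE_inactive and 2.39 in BRE_active. In each of the 4 pools it was larger in BRE_active, with a mean excess of 0.335 (log2), and its part in the differences was not tested.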

How the data were processed

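The authors deposited log2 expression values for each probe set on 8 Affymetrix arrays, with adjusted p-values and counts of arrays called present. The background correction, normalization, probe summary, present caller and genome build were not given in the sources used here. The 96 control probe sets were left out, and 8 columns of per-array call letters were not used. The remaining 38439 probe sets were fitted by lmFit and eBayes of limma 3.58.1 (R 4.3.3), with no term but group (two-sided, Benjamini-Hochberg adjustment over all of them, threshold 0.05). The same fit with the control probe sets kept in gave the authors' deposited adjusted p-value within 6.13e-13. The procedure was also run on simulated data with independent noise on each array. Those data held no pool effect, so they do not test the fits on paired fractions.

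Same-numbered arrays are pairs by the labels, since both fractions of a number came from 1 pool of embryos. Their deviations from the group means correlated at -0.141, 0.203, 0.498 and 0.584 for pools 1 to 4. The fit with the pool as a fixed block is the alternative given beside each collagen or processing gene's call it changed, and as counts for the marker lists.

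Gene IDs were matched to the RefSeq gene table of GRCg7b (22915 of 26132 probe sets with an ID). Of the 38 genes, only the ID of COL1A2 had no entry there; the others had the same symbol in both. Alternatives were each array or pool left out, other blocks, filters, scalings, weights, probe set choices and adjustments. Described in full were genes called in either fit, detected genes with a difference of at least 0.5 in size and all processing genes. Members and lists were chosen with earlier results of these data known.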

Additional observations from a re-analysis of the deposited data

Results flagged for a closer look

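In 4 of the 42 sets of 4 arrays looked at (21 detected genes in each group), 1 array stood apart from the other 3. For independent sets chance gives about 1 such set in 20. The sets looked at share the same 8 arrays, so that rate cannot be applied to them. COL14A1 read 6.06 on the BRE_inactive array of pool 4, where the other 3 read between 7.57 and 7.82. COL5A1 read 7.91 on the BRE_active array of pool 4, against 9.61 to 9.74 on the others. P4HA1 read 8.22 on the same array, against 8.81 to 8.89. PLOD2 read 5.82 on the BRE_inactive array of pool 1, against 6.43 to 6.55.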

How the results depend on the processing

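COL9A3 and COL9A1 were called higher under all 22 alternatives, with differences of 1.89 to 2.18 and 0.644 to 1.5, the lowest COL9A1 value coming from the mean of its probe sets. The number of collagen and processing genes called was 2. It was 10 with the pool as a fixed block (replicate block) and 4 with the pool as a random block, which added COL1A2 and SERPINH1. Leaving out an array or a pool gave 2 to 6, the 6 without the BRE_active array of pool 4 and also without pool 4, when COL1A2, COL4A2, COL12A1 and P4HA2 were added. The share of all symbols called higher was then 3.31% and 3.1%, and it ranged from 0.302% (without pool 3) to 3.31% on leaving out an array or a pool. COL1A2 passed in 8 of 22 alternatives (adjusted p 0.00422 to 0.333). Of all probe sets, 517 were called, 2156 with the fixed block, 1068 with the random block, 1040 with array weights, and 77 (without pool 3) to 1419 (without the BRE_active array of pool 4) on leaving out arrays. Of the other genes of collagen synthesis, 2 were called, and 0 to 2 on leaving out arrays, with 0 without pool 3.

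In the fit with the block, chosen for these checks after seeing the data, leaving out a pool gave 6 to 8 genes in place of 10 (15.8% to 21.1% in place of 26.3%), while the share of all symbols called in either direction was 2.96% to 6.25% in place of 7.47%. Without pool 2 and without pool 3 it was 6, of which 6 and 5 were among the 10, and COL6A1 was then called lower without pool 3. Without pool 1 COL3A1 was gained, and without pool 4 COL24A1. Quantile normalization with the block gave 8, without P4HA2 and PLOD1. Of the single-gene values, 22 passed the threshold only under an alternative, none was lost or reversed after a call, and 30 values called in neither fit changed sign. The limits are 4 pools per group, transient plasmids, unstated upstream processing and dim probe sets.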
